A study of Mus musculus with 16 samples.

Results

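The mitochondrial ribosomal protein genes are the nuclear genes that encode the proteins of the mitoribosome. They were taken from the TM4 count table as the protein-coding rows whose mouse symbol is Mrpl or Mrps followed by a number and at most 1 letter, which gave 78 of 56748 genes. TM4 is a mouse cell line described as Sertoli-like, that is, it resembles the somatic supporting cells of the testis. The cells were transfected with 1 of 3 plasmids, all under the same conditions (2.5 µg of plasmid per well, 24 h after seeding, RNA taken 24 h later). The EV group (6 samples) received the empty vector pcDNA3.1-HA, the *gdf6Y* group (5 samples) a plasmid with the turquoise killifish growth factor gene *gdf6Y*, and the del9 group (5 samples) the same gene with an in-frame deletion in its prodomain. All 3 groups were transfected with Lipofectamine, a lipid reagent, as transient transfections of 1 mouse line, and the gene in the *gdf6Y* and del9 groups is that of a fish. The labels number the replicates and do not say whether they came from separate cultures. The p-values therefore rest on the spread between these samples, which may be technical. The test estimates that spread in part from other genes, so a p-value does not measure the spread of its own gene alone.

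The mitoribosome sits at the inner mitochondrial membrane and translates the few mRNAs of the mitochondrial genome, which encode core subunits of the respiratory chain and of ATP synthase. Its ribosomal RNAs, mt-Rnr1 and mt-Rnr2, come from the mitochondrial genome, whereas its proteins are encoded in the nucleus, made in the cytosol and imported. Some of these proteins have counterparts in bacterial ribosomes and others were gained in the mitochondrial lineage. The genes are expressed in nearly all cell types, Sertoli cells included. The transcripts of these genes tend to be short, with a median of 1812 bases beside 3535.5 for all genes averaging 100 counts or more. The cytosolic ribosomal protein genes, with shorter transcripts still (median 1096 bases), are given beside them.

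The libraries held between 21486850 and 26444903 counted reads. The mitochondrial ribosomal protein genes took 0.373% to 0.384% of the counts in the EV samples, 0.388% to 0.406% in the *gdf6Y* samples and 0.396% to 0.409% in the del9 samples. Of 11 genes used as Sertoli cell markers, *Gata4*, *Kitl*, *Dhh*, *Sox9* and *Inha* had a mean count of at least 10. *Amh* and *Nr5a1* were below that mean. *Wt1* and *Dmrt1* were at 0 in all 16 samples, and *Fshr* and *Cldn11* were at or near 0. Over these 5 the mean log2 CPM (± SD, n = 6, 5 and 5) came to 2.66 ± 0.0743, 2.51 ± 0.0319 and 2.51 ± 0.0879 in EV, *gdf6Y* and del9, and both transfected groups lay below all EV samples. *Gata4*, a transcription factor of gonadal somatic cells, was the 1 marker of this list that passed the test, lower with *gdf6Y*. The defining granulosa cell genes *Foxl2*, *Cyp19a1* and *Rspo1* and the Leydig cell genes *Cyp17a1*, *Hsd3b1* and *Lhcgr* were at 0 throughout, and of the granulosa list *Fst* alone passed, higher with del9 (from 471 to 637 normalized counts). Germ cell markers stayed under 3 normalized counts on average, the leukocyte marker *Ptprc* had a mean of 1.02 with EV, and no marker of these 2 lists or of the Leydig list passed. The part of these markers in the results below was not tested. In bulk RNA, a change in the share of cells that responded and a change in RNA per cell cannot be told apart.

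Levels of the members were compared per transcript length, as CPM (counts scaled to a common library size) per kilobase of the Ensembl canonical transcript. Across the 78 genes the median level in EV samples was 20.1 CPM per kilobase, with quartiles of 12.4 and 40.2. The 51 genes of the large subunit had a median of 19.9 and the 26 genes of the small subunit a median of 23.0. The 83 cytosolic ribosomal protein genes had a median of 420 on the same scale. *Mrpl13*, a protein of the large subunit, stood highest at 106.98 ± 1.83 CPM per kilobase (SD, n = 6), followed by *Mrpl42* at 104 ± 2.72 and *Mrpl33* at 94.4 ± 2.79. The levels of *Mrpl13* and *Mrpl42* lay within the sum of their SDs, and *Mrpl33* stood below both. At the other end, *Mrpl48*, a protein of the central protuberance, was at 4.39 ± 0.167 and *Mrpl55* at 2.55 ± 0.0721 CPM per kilobase. *Mrpl53* was listed at 0 in all 16 libraries, where 3 counts per library remain possible. Reads that mapped to several places or overlapped several genes were discarded in counting, so this 0 does not show that the gene was silent. The order depends on the length used. With the length of all annotated exons, *Mrpl13*, *Mrpl42* and *Mrpl33* ranked at 40, 32 and 67, and *Mrpl28*, *Mrpl34* and *Mrpl12* ranked highest. At the low end *Mrpl23* and *Mrps36* then came next to *Mrpl53*. Named pseudogenes exist for *Mrpl23*, *Mrpl27*, *Mrpl48* and *Mrps36*, so their counts of uniquely mapped reads are uncertain.

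**Figure D1:**
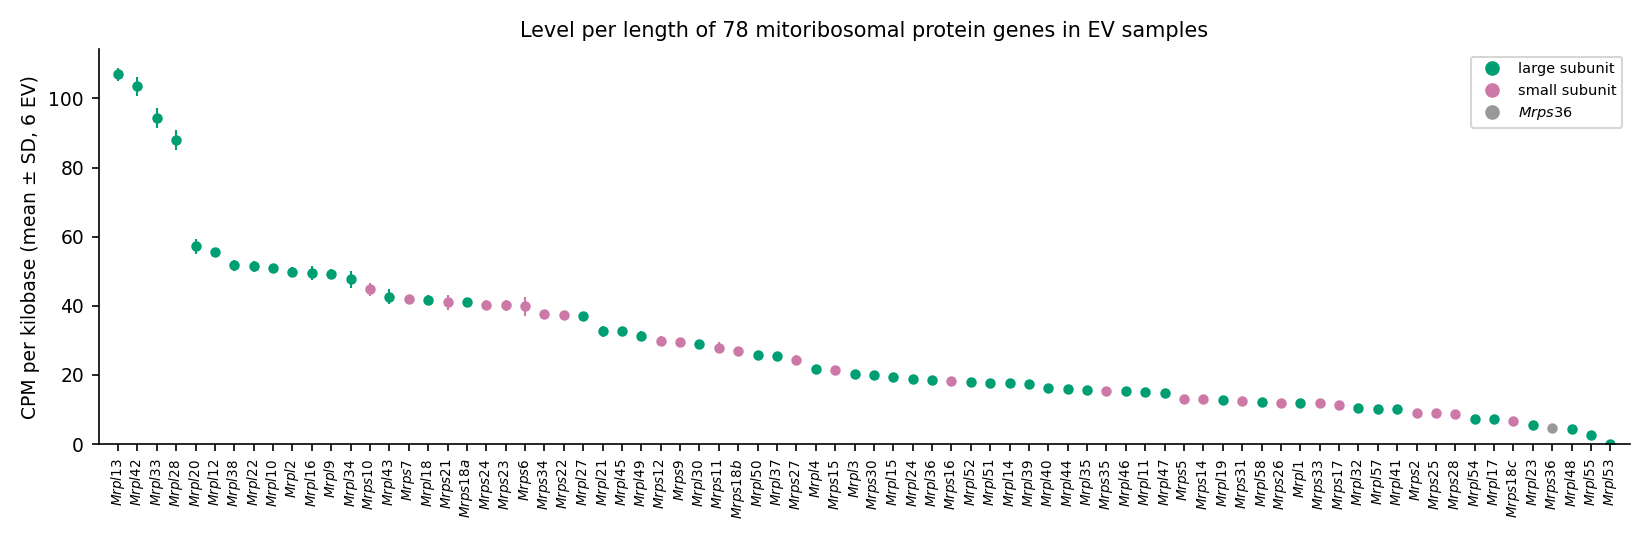
Level per transcript length of the 78 mitochondrial ribosomal protein genes in the EV samples, in CPM per kilobase, ordered by level (points, mean of 6 samples; bars, SD; colours, subunit). *Mrpl13* stood at 106.98 and *Mrpl53* at 0, the 13 highest genes were all of the large subunit, and genes of the small subunit lay between 6.63 and 44.8.

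A score was formed for each sample as the mean log2 CPM over the 77 members with a mean count of at least 10, after TMM scaling and with a pseudocount of 2 counts. The EV samples 1 to 6 had scores of 5.402, 5.402, 5.370, 5.403, 5.397 and 5.400. The *gdf6Y* samples 1 to 5 had scores of 5.444, 5.448, 5.497, 5.450 and 5.492. The del9 samples 1 to 5 had scores of 5.467, 5.478, 5.530, 5.478 and 5.485. Every *gdf6Y* sample and every del9 sample lay above every EV sample, and the *gdf6Y* and del9 samples overlapped. Group means (± SD, n = 6, 5 and 5) were 5.40 ± 0.0128 for EV, 5.47 ± 0.0259 for *gdf6Y* and 5.49 ± 0.0246 for del9. On the linear scale this put *gdf6Y* 5.03% and del9 6.57% above EV, with differences in score of 0.0708 ± 0.0127 and 0.0918 ± 0.0122 (SE, samples taken as unpaired). The sample with the lowest score of all was EV 3, and the highest was del9 3.

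By replicate number, which the groups share in their labels, the score of *gdf6Y* exceeded that of EV by 0.0421, 0.0463, 0.127, 0.0476 and 0.0949 in numbers 1 to 5. For del9 the differences from EV were 0.0650, 0.0759, 0.160, 0.0749 and 0.0878. All differences were positive, and number 3 had the largest in both. Between *gdf6Y* and del9 they were -0.0228, -0.0296, -0.0326, -0.0273 and 0.00709, so that *gdf6Y* was below del9 in 4 of 5 numbers. The mean difference within numbers (± SE, n = 5) was 0.0717 ± 0.0169 between *gdf6Y* and EV, 0.0927 ± 0.0172 between del9 and EV and -0.0211 ± 0.00722 between *gdf6Y* and del9. Gene by gene, a del9 sample was the highest of the 16 for 48 members, a *gdf6Y* sample for 28 and an EV sample for 1. An EV sample was the lowest for 64 members, a *gdf6Y* sample for 11 and a del9 sample for 2.

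**Figure D2:**
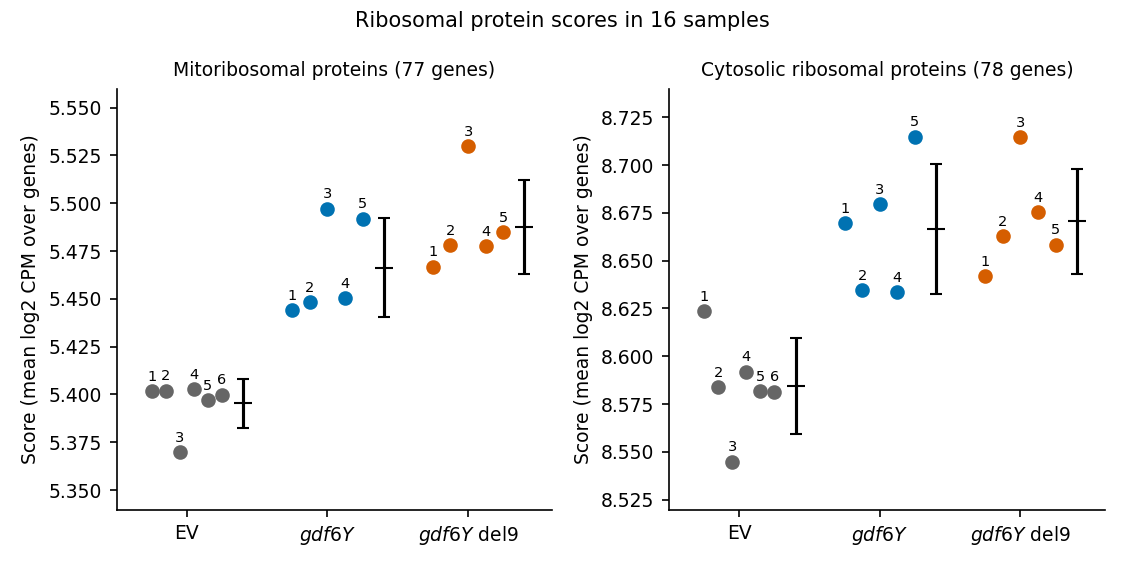
Scores of the mitoribosomal (left) and cytosolic (right) ribosomal protein genes per sample, in mean log2 CPM (points, samples with their replicate number; crosses with bars, mean ± SD; the axes do not start at 0 and span the same range). In both panels all *gdf6Y* and del9 samples lie above the EV samples.

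Between *gdf6Y* and EV, 13 of the 77 members tested rose and 0 fell (edgeR quasi-likelihood test, Benjamini-Hochberg adjusted p below 0.05, n = 5 and 6), where 1.7% of all 26316 genes tested rose and 3.38% fell. Among genes averaging 100 counts or more, which include nearly all members, 4.29% rose and 8.61% fell. Of the members, 74 had a positive and 3 a negative log2 fold change, with a median of 0.07, beside 0.00 for all genes of that count. At an unadjusted p below 0.05 there were 39 higher and 0 lower, beside 6.71% and 7.62% of all genes. Of the 10062 genes averaging 100 counts or more, 1435 were higher and 1650 lower at that p. DESeq2 called 14 members higher and 0 lower. The EV and *gdf6Y* samples did not overlap for 11 members, all higher, as against 1.26% of all genes higher and 1.35% lower (3.03% and 3.29% of those averaging 100 counts or more). The members ranged from 1.71% below to 14.8% above EV. With replicate number as a block, 20 members were called (same-numbered *gdf6Y* and EV samples deviated together). The count was 6 without *gdf6Y* 3 and 5 without *gdf6Y* 5, the samples with the highest scores of the group.

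Between del9 and EV, a comparison that the study itself did not list, 29 of 77 members rose and 0 fell, where 4.82% of all 26226 genes rose and 4.43% fell. Among genes averaging 100 counts or more, 12.3% rose and 9.4% fell. There were 75 positive and 2 negative log2 fold changes, with a median of 0.09 beside 0.01 for all genes of that count. At an unadjusted p below 0.05, 50 members were higher and 0 lower, beside 9.63% and 9.11% of all genes. Of the 10085 genes averaging 100 counts or more, 2235 were higher and 1630 lower at that p. DESeq2 called 30 members higher and 0 lower. The samples did not overlap for 18 members, all higher, as against 2.17% of all genes higher and 1.6% lower (5.47% and 3.56% of those averaging 100 counts or more). The count fell to 15 without del9 3, and scaling by total counts alone gave 19 higher and 0 lower. That scaling also turned the split of all called genes from 1263 higher and 1162 lower to 863 and 1492. Both comparisons share the EV samples and are therefore not independent of each other.

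**Figure D3:**
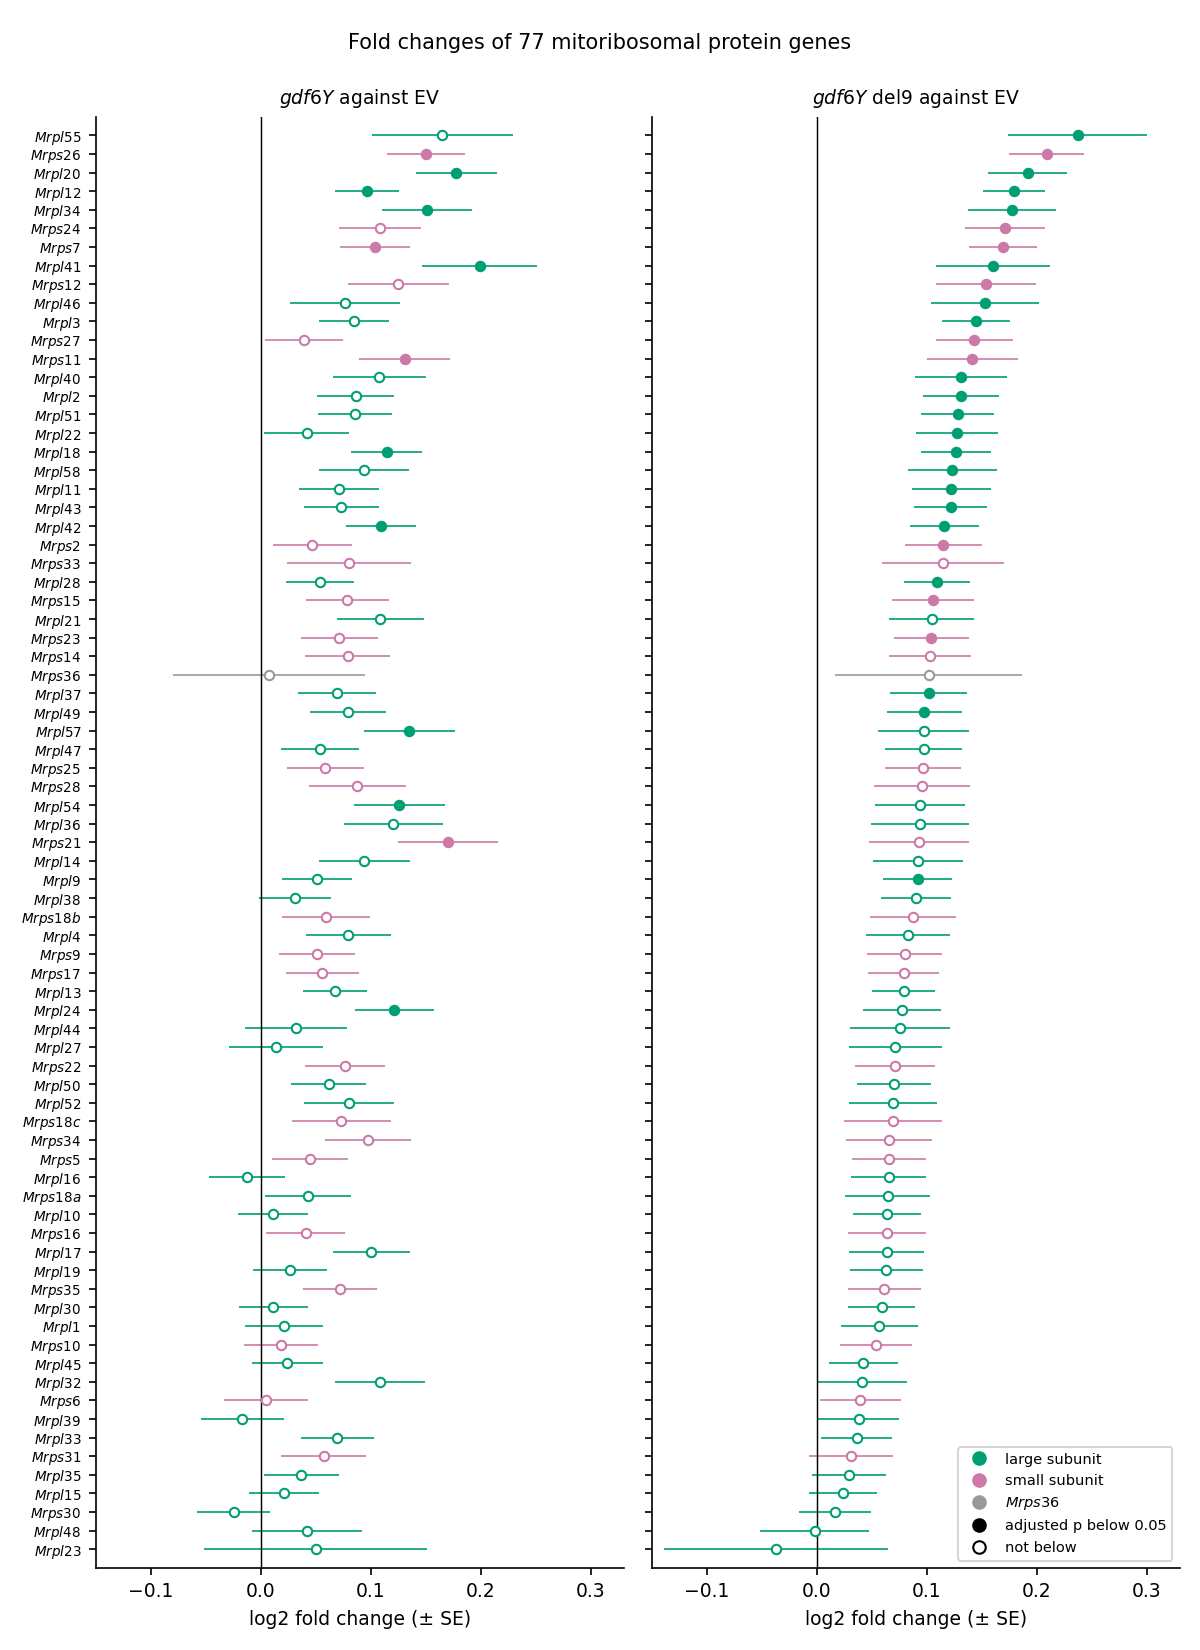
Log2 fold changes ± SE of the 77 members tested, for *gdf6Y* (left) and del9 (right) against EV, ordered by the del9 values (filled, adjusted p below 0.05; colours, subunit). Nearly all points lie right of 0, and 13 (left) and 29 (right) are filled.

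The 4 members with the smallest adjusted p between del9 and EV were *Mrpl12*, *Mrps26*, *Mrps7* and *Mrpl20*. Their promoters are shown as a description, as the 250 bases before the transcription start (RefSeq, mouse build GRCm38.p6, plus strand, 5′ to 3′). The windows lie at chr11:120484387-120484636, chr2:130563507-130563756, chr11:115603890-115604139 and chr4:155802628-155802877, in this order. Capitals mark matches to the 4 motifs described further on that lie wholly in these bases.
Mrpl12: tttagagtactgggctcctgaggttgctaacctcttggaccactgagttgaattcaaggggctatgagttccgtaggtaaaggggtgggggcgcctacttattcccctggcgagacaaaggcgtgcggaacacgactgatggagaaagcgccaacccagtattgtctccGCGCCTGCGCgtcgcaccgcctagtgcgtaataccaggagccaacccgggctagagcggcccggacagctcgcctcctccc
Mrps26: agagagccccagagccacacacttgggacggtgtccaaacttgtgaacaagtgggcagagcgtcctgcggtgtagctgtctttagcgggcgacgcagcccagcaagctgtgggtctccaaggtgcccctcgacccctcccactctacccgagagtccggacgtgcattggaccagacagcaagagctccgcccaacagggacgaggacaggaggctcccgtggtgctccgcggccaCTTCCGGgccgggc
Mrps7: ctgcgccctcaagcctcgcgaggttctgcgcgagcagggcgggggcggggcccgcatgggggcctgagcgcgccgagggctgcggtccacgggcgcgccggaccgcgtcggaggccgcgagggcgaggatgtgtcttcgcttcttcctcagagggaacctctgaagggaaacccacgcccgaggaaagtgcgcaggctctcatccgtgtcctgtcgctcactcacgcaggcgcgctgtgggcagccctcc
Mrpl20: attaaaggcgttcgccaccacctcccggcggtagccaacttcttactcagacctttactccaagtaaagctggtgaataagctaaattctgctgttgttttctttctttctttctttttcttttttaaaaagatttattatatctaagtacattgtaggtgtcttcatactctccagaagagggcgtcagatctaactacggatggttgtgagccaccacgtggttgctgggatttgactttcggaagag
*Mrpl12* holds 1 NRF1 match and *Mrps26* 1 ETS match in these bases, and *Mrps7* and *Mrpl20* hold none of the motifs. *Mrps26* also has NRF1 matches that begin at positions -2 and 5 from the start and end beyond the printed bases. GC content was 59.6%, 65.2%, 72% and 41.6%, in the same order.

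*Mrpl12* (ENSMUSG00000039640) lies on chromosome 11 at 120375430 to 120381396 in GRCm39, the build of the counts. It encodes the stalk protein that recruits translation factors to the large subunit. Its normalized counts were 3224, 3348 and 3401 as the lowest, median and highest EV sample. The *gdf6Y* samples had 3494, 3533, 3689, 3473 and 3644 normalized counts, and the del9 samples 3647, 3736, 4069, 3549 and 3883. Neither the *gdf6Y* nor the del9 samples overlapped EV. The log2 fold change was 0.10 ± 0.0291 (SE, edgeR adjusted p = 0.0249) for *gdf6Y* and 0.18 ± 0.0282 (adjusted p = 3.36e-08) for del9.

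*Mrps26* (ENSMUSG00000037740, chromosome 2 at 130405658 to 130410616), a protein of the small subunit that bacteria lack, had 1133, 1262 and 1306 normalized counts as the lowest, median and highest EV sample. It reached 1289, 1448, 1459, 1281 and 1438 in the *gdf6Y* samples and 1337, 1433, 1469, 1453 and 1504 in the del9 samples. The *gdf6Y* samples 1 and 4 fell within the EV range, while all del9 samples were above it. Its log2 fold change was 0.15 ± 0.0355 (SE, edgeR adjusted p = 0.00128) for *gdf6Y* and 0.21 ± 0.0344 (adjusted p = 1.69e-07) for del9.

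*Mrps7* (ENSMUSG00000046756, chromosome 11 at 115494636 to 115498871), the counterpart of a bacterial protein in the head of the small subunit, had 2002, 2047 and 2099 normalized counts in the lowest, median and highest EV sample. The *gdf6Y* samples had 2091, 2262, 2293, 2136 and 2195, of which only the first overlapped EV, and the del9 samples had 2286, 2271, 2335, 2267 and 2319. The del9 samples were close together and all above EV, with a log2 fold change of 0.17 ± 0.0308 (SE, edgeR adjusted p = 3.36e-06). For *gdf6Y* it was 0.10 ± 0.0316 (adjusted p = 0.0269).

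*Mrpl20* (ENSMUSG00000029066, chromosome 4 at 155887335 to 155894435), whose bacterial counterpart acts in assembly of the large subunit, showed the smallest adjusted p of the members between *gdf6Y* and EV. Normalized counts ranged from 1028 over a median of 1069 to 1133 in EV samples. They were 1157, 1216, 1217, 1187 and 1315 with *gdf6Y*, all above EV, and 1129, 1256, 1270, 1218 and 1273 with del9, where sample 1 overlapped EV. The log2 fold change was 0.18 ± 0.0366 (SE, edgeR adjusted p = 0.000106) for *gdf6Y* and 0.19 ± 0.0360 (adjusted p = 7.25e-06) for del9.

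**Figure D4:**
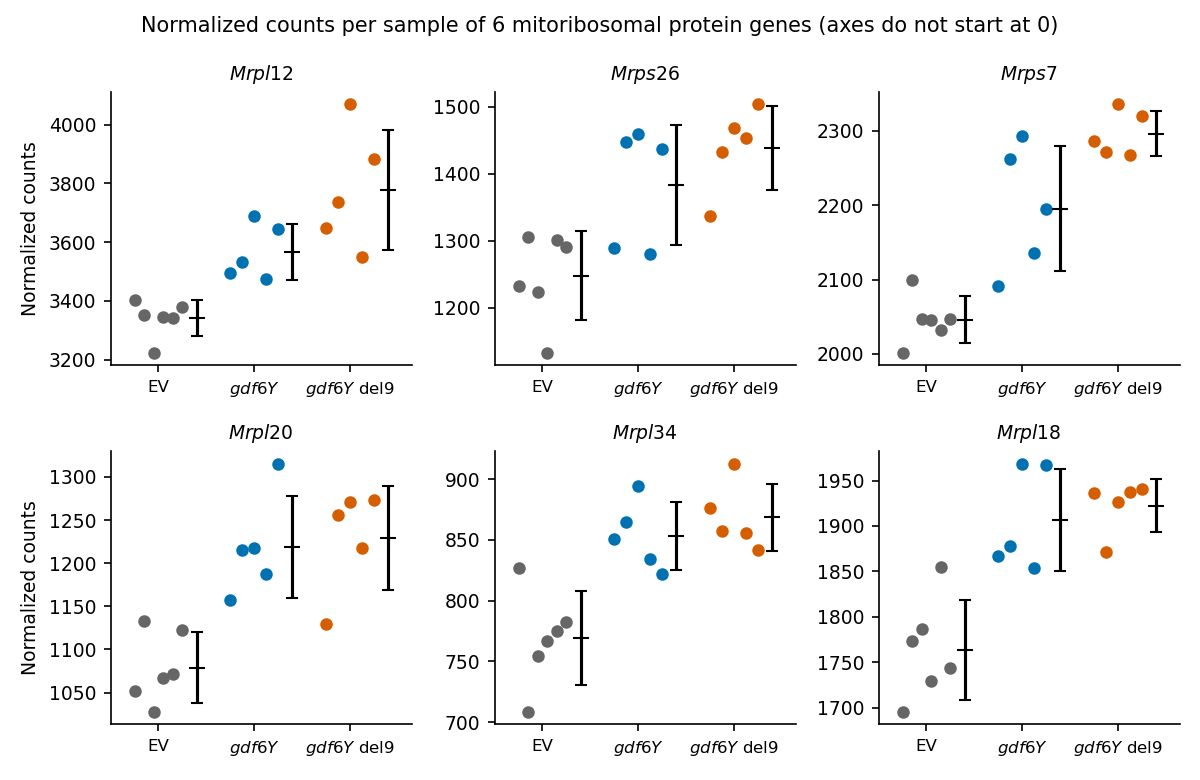
Normalized counts per sample of *Mrpl12*, *Mrps26*, *Mrps7*, *Mrpl20*, *Mrpl34* and *Mrpl18* (points, samples; crosses with bars, mean ± SD; axes do not start at 0). The del9 samples lie above all EV samples in each panel except that of *Mrpl20*.

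Among other members of the large subunit, *Mrpl34*, a very small protein with a bacterial counterpart, had 708, 771 and 827 normalized counts in the lowest, median and highest EV sample, 851, 865, 894, 834 and 822 with *gdf6Y* and 876, 857, 913, 856 and 842 with del9. One EV sample reached into the *gdf6Y* range and none into that of del9. The log2 fold changes were 0.15 ± 0.0408 (SE, edgeR adjusted p = 0.00771) and 0.18 ± 0.0401 (adjusted p = 0.00035). *Mrpl18*, a protein of the central protuberance, rose by 8.23% with *gdf6Y* (adjusted p = 0.014) and by 9.2% with del9 (adjusted p = 0.00182).

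*Mrpl41*, a protein specific to the mitochondrial ribosome, had the largest percentage rise of the members with *gdf6Y*. It had 356, 397 and 415 normalized counts in the lowest, median and highest EV sample, 423, 431, 479, 441 and 475 with *gdf6Y* and 419, 430, 467, 424 and 450 with del9. The *gdf6Y* and del9 samples all lay above EV, with log2 fold changes of 0.20 ± 0.0521 (SE, edgeR adjusted p = 0.00536) and 0.16 ± 0.0519 (adjusted p = 0.0274). *Mrpl55*, the large-subunit gene with the lowest nonzero level per length, had the largest rise of the members with del9, at 17.9%. The EV samples averaged 240 ± 6.81 normalized counts (SD, n = 6), the *gdf6Y* samples 269 ± 15.3 and the del9 samples 283 ± 8.62 (SD, n = 5 each). Neither group overlapped EV, but only del9 passed the threshold (edgeR adjusted p = 0.132 and 0.00394).

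*Mrps21*, encoded by the shortest canonical transcript of the members at 555 bases, had 531, 548 and 605 normalized counts in the lowest, median and highest EV sample. It was at 652, 602, 638, 643 and 620 with *gdf6Y* and at 617, 570, 617, 645 and 543 with del9. The *gdf6Y* samples were high with 1 sample just inside the EV range, and 3 of the 5 del9 samples lay above it and 2 within it. The log2 fold change was 0.17 ± 0.0454 (SE, edgeR adjusted p = 0.00675) for *gdf6Y*, and with del9 the mean was 598 ± 41.0 beside 562 ± 30.5 with EV (adjusted p = 0.233). Between *gdf6Y* and del9 the adjusted p was 0.654, so a difference between the groups was not shown.

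The other members called between *gdf6Y* and EV were *Mrpl42*, *Mrpl24*, *Mrpl57*, *Mrps11* and *Mrpl54* (the last named after its values were seen), with log2 fold changes of 0.11, 0.12, 0.13, 0.13 and 0.13. *Mrpl24* lies near the exit of the peptide tunnel and *Mrps11* in the platform of the small subunit. Of these, *Mrpl42* (adjusted p = 0.00417) and *Mrps11* (adjusted p = 0.00997) were called for del9 too, and *Mrpl24* (0.185), *Mrpl57* (0.135) and *Mrpl54* (0.157) were not. Between del9 and EV the further members of the 12 with the smallest adjusted p were *Mrps24*, *Mrpl3*, *Mrps27*, *Mrpl51* and *Mrpl2*, with log2 fold changes of 0.17, 0.15, 0.14, 0.13 and 0.13. *Mrpl3* and *Mrpl2* are core proteins near the peptidyl transferase centre, *Mrps24* lines the mRNA entry and *Mrps27* is an RNA-binding repeat protein. *Mrps24*, *Mrpl3* and *Mrpl51* overlap other annotated genes on the same strand, so that their counts leave out reads from the shared stretches. For *gdf6Y* the adjusted p-values of the 5 genes were 0.0684, 0.112, 0.57, 0.142 and 0.166, in the order *Mrps24*, *Mrpl3*, *Mrps27*, *Mrpl51* and *Mrpl2*.

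Members with particular roles were looked at by name. *Mrps12*, the protein of the decoding centre, averaged 551 ± 25.5 normalized counts in EV (SD, n = 6), 599 ± 26.2 in *gdf6Y* and 611 ± 18.5 in del9 (SD, n = 5 each). Neither group overlapped EV, and the edgeR adjusted p was 0.1 for *gdf6Y* and 0.0114 for del9. *Mrpl58*, a peptidyl-tRNA hydrolase built into the large subunit, was at 777 ± 19.0, 828.8 ± 36.4 and 846 ± 22.8, with adjusted p-values of 0.219 and 0.0288. *Mrpl45*, which anchors the ribosome to the inner membrane, was at 1962 ± 72, 1991 ± 96.6 and 2016 ± 63.2, and neither value passed (0.747 and 0.521).

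The 3 *Mrps18* paralogs have different places in the ribosome, as *Mrps18a* belongs to the large subunit despite its symbol and *Mrps18b* and *Mrps18c* to the small one. None of them was called. *Mrps18a* was at 897 ± 26.3 normalized counts with EV, 924 ± 39.8 with *gdf6Y* and 937 ± 42.6 with del9, *Mrps18b* at 857 ± 35.1, 891 ± 49.3 and 909 ± 46.6, and *Mrps18c* at 608 ± 22, 638 ± 13.2 and 636 ± 36.2. *Mrps30*, also a protein of the large subunit, was at 1655 ± 47.1, 1624 ± 29.7 and 1671 ± 62.7, and its groups overlapped. *Mrps36*, which is known as a subunit of the alpha-ketoglutarate dehydrogenase complex rather than of the ribosome, was at 130 ± 12.3, 131 ± 10.0 and 140 ± 13.7 (adjusted p = 0.968 and 0.522 against EV).

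Members were then grouped by structure. Of 50 tested genes of the large subunit, 9 rose with *gdf6Y* and 20 with del9, with median log2 fold changes of 0.07 and 0.09. Of 26 genes of the small subunit, 4 and 9 rose, with medians of 0.07 and 0.09. The 46 genes with a bacterial counterpart had 8 and 17 called and the 30 tested without one had 5 and 12. Medians were again 0.07 with *gdf6Y* and, for del9, 0.09 and 0.10. Among the 3 genes of the factor-binding stalk and its base, 1 rose with *gdf6Y* and 2 with del9, among the 6 of the exit tunnel 1 and 1, and among the 6 of the central protuberance 1 and 3. No group fell, and no difference between the groups was tested. Among all genes averaging 100 counts or more, 4.29% rose with *gdf6Y* and 12.3% with del9. The regions hold too few genes to set their counts apart from these shares.

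Between *gdf6Y* and del9, which compares the intact with the mutant factor, 0 of 77 members were called in either direction (edgeR), where 0.599% of 25878 genes were higher and 0.41% lower (0.932% and 1.03% of those averaging 100 counts or more). DESeq2 called 0 too, and at an unadjusted p below 0.05 there were 2 lower members and 0 higher, beside 3.78% and 4.1% of all genes. Of the 10083 genes averaging 100 counts or more, 779 were lower and 519 higher at that p. Of the members' log2 fold changes 22 were positive and 55 negative, with a median of -0.02. The 2 lower ones were *Mrps27* and *Mrpl12*, and *Mrps27* and *Mrpl16* were the members without overlap. *Mrps27* and *Mrpl16* were named for this comparison after their values were seen. Without overlap, 0.734% of all genes were lower and 0.56% higher (1.64% and 0.813% of those averaging 100 counts or more). *Mrps27* had 1268, 1270, 1253, 1282 and 1247 normalized counts with *gdf6Y* and 1391, 1300, 1399, 1366 and 1334 with del9, and the EV samples spanned 1153 to 1329. Its log2 fold change was -0.10 ± 0.0389 (SE, adjusted p = 0.336). *Mrpl12* was at -0.08 ± 0.0327 (adjusted p = 0.413) and *Mrpl16*, which lies near the peptidyl transferase centre, at -0.07 ± 0.0381 (adjusted p = 0.619). The difference in score was -0.0211 ± 0.0160 (SE) with the samples unpaired and ± 0.00722 over the 5 differences within numbers, which were taken as pairs here, and the group ranges overlapped. With replicate number as a block the count of members stayed at 0.

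The cytosolic ribosomal protein genes moved in the same direction. Over 78 genes their score (± SD, n = 6, 5 and 5) was 8.58 ± 0.0252 for EV, 8.67 ± 0.0339 for *gdf6Y* and 8.67 ± 0.0274 for del9, or 5.84% and 6.15% above EV. With *gdf6Y*, 49 of 81 rose and 0 fell, and with del9, 52 of 80 rose and 0 fell, beside the 4.29% and 12.3% that rose among all genes averaging 100 counts or more. At an unadjusted p below 0.05 none was lower in either. *Rpl31*, *Rpl11*, *Rps14* and *Rpl41* had the smallest adjusted p with *gdf6Y*, with log2 fold changes of 0.16, 0.14, 0.13 and 0.12. A larger share was called than of the mitoribosomal set, with a median SE of 0.0256 beside 0.0362 on the log2 scale with *gdf6Y*. The median log2 fold change of the cytosolic and the mitoribosomal set was 0.09 and 0.07 with *gdf6Y*, and 0.10 and 0.09 with del9. The difference between the sets was not tested.

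Transcript length moved with the groups over all genes. The members' canonical transcripts had a median of 1812 bases, and 12 of 78 were under 1000. For the cytosolic set the median was 1096 bases, with 39 of 83 under 1000, and for all genes averaging 100 counts or more it was 3535.5 bases, with 4.61% under 1000. Genes under 1000 bases had a median log2 fold change of 0.07 in both comparisons with EV, and genes of 4000 bases and over had -0.04 with *gdf6Y* and -0.03 with del9. The median deviation of the 464 short genes was below 0 in all EV samples (-0.0722 to -0.00958), above 0 in all del9 samples (0.00417 to 0.0562) and in 4 of 5 *gdf6Y* samples (-0.0176 to 0.0612). The members lay above all genes of the same length in each class. Their medians with *gdf6Y* were 0.10, 0.08, 0.07 and 0.05 from the shortest to the longest class, where all genes had 0.07, 0.05, 0.01 and -0.04. With del9 they were 0.10, 0.10, 0.09 and 0.06, where all genes had 0.07, 0.06, 0.02 and -0.03.

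When each sample's trend on transcript length was removed, fewer members passed. With *gdf6Y*, 4 of 77 rose (*Mrpl17*, *Mrps26*, *Mrpl20* and *Mrpl54*, of which *Mrpl17* was named after its values were seen) and 0 fell, where 1.58% of all genes rose. This count depended on the length used: with the length of all annotated exons it was 11 members higher and 0 lower, where 1.75% of all genes rose. With del9, 15 rose and 0 fell, where 3.36% of all genes rose, and these included *Mrps26*, *Mrpl12*, *Mrpl3*, *Mrps7* and *Mrpl20*. With the length of all annotated exons 16 rose with del9. The shares here are over all genes tested, many of them with low counts. Without the correction, 4.29% of genes averaging 100 counts or more rose with *gdf6Y*, beside 1.7% of all genes. With del9 these shares were 12.3% and 4.82%. Those shares come from the run without the correction and are not a like measure for corrected counts. Whether 4 of 77 members with *gdf6Y* and 15 with del9 stood above other genes of such counts was not tested. The share of positive log2 fold changes fell to 63 of 77 with *gdf6Y* and stood at 73 of 77 with del9, with medians of 0.04 and 0.06. Corrected scores averaged 5.41 ± 0.00760 for EV (SD, n = 6), 5.46 ± 0.0177 for *gdf6Y* and 5.47 ± 0.0171 for del9 (SD, n = 5 each). EV samples, at 5.397 to 5.420, still did not overlap the *gdf6Y* samples, at 5.436 to 5.475, or the del9 samples, at 5.455 to 5.500. For the cytosolic set the corrected *gdf6Y* and del9 ranges overlapped that of EV. Of its genes 9 and 20 rose, beside 1.58% and 3.36% of all genes. With the block and the length trend together, 11 members were called with *gdf6Y* and 16 with del9. In the same runs 1396 and 2513 of all genes were called, in either direction.

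Promoter windows of 250 bases before to 50 after the start were found in RefSeq (GRCm38.p6) for 69 of the 78 members. Each was searched on both strands for GCGC and TGCGC parted by any 1 base (the factor NRF1), CCGGAAG (ETS factors such as GABP), AAGATGGCG (YY1) and TATAAA (the TATA box), and matches may overlap, since the last AAG of the ETS letters can be the first of the YY1 letters. The ETS letters were in 37.7% of the members' windows, in 41% of 61 windows of cytosolic ribosomal protein genes and in 14.2% of 15311 windows of protein-coding genes. NRF1 letters were in 18.8% of the members' windows, 8.2% of the cytosolic ones and 7.86% of all, and YY1 letters in 11.6%, 4.92% and 2.4%. The letters TATAAA, at any position, were in 7.25% of the members' windows and in 12.8% of all. The 25 tested members with the ETS letters had a median log2 fold change of 0.08 with *gdf6Y* and 0.10 with del9, beside 0.06 and 0.09 for the 43 without. For the NRF1 letters the medians were 0.09 and 0.08 in the 13 members with them, beside 0.07 and 0.10 in the 55 without, so the order differed between the comparisons, and 4 of the 13 were called with *gdf6Y* and 3 with del9, beside 8 and 26 of the 55. The 8 members with the YY1 letters had 0.09 and 0.11, beside 0.07 and 0.09 in the 60 without. The 5 with the letters TATAAA had 0.06 and 0.08, beside 0.07 and 0.10 in the 63 without. Matches describe letters in a window and were given no test.

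Other genes of mitochondrial translation were taken from lists, whose counts are read beside all genes averaging 100 counts or more (4.29% higher and 8.61% lower with *gdf6Y*, 12.3% higher and 9.4% lower with del9, medians 0.00 and 0.01). Of the 5 mitoribosomal protein genes with other symbols, *Aurkaip1* rose from 1177 ± 43.1 normalized counts in EV (SD, n = 6) to 1302 ± 24.7 in *gdf6Y* and 1300 ± 41.0 in del9 (SD, n = 5 each; edgeR adjusted p = 0.00209 and 0.00109), without overlap in either. *Dap3*, *Chchd1*, *Ptcd3* and *Gadd45gip1* did not pass, and all their log2 fold changes against EV were positive. Of 17 translation factors, 0 were called in either comparison by edgeR or DESeq2, with medians of 0.03 and 0.03 and with 1 and 3 higher and 1 and 0 lower at an unadjusted p below 0.05. Of 31 assembly factors, 0 were called with *gdf6Y* by either tool (1 higher and 1 lower unadjusted) and 1 with del9, the pseudouridine synthase *Rpusd4* (log2 fold change 0.18, adjusted p = 0.0054), with medians of 0.03 and 0.06. Of 21 genes of mitochondrial transcription and RNA processing, 0 were called with *gdf6Y* by either tool (2 higher and 0 lower unadjusted), and the RNA processing genes *Elac2*, *Hsd17b10*, *Tbrg4* and *Trmt10c* rose with del9, with medians of 0.01 and 0.03. Of 22 mitochondrial aminoacyl-tRNA synthetases, 0 were called with *gdf6Y* by either tool (4 higher and 1 lower unadjusted) and 2, *Kars1* and *Yars2*, rose with del9, with medians of 0.03 and 0.04. The share called higher with del9 was thus below that of all genes of that count for the translation factors, assembly factors and synthetases and above it for the RNA processing list.

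The ribosomal RNA of the small subunit, *mt-Rnr1*, was at 9031 ± 608 normalized counts in EV (SD, n = 6), 8678 ± 672 in *gdf6Y* and 8246 ± 498 in del9 (SD, n = 5 each), and was called lower with del9 (log2 fold change -0.13, edgeR adjusted p = 2.85e-05), although the groups overlapped. *mt-Rnr2*, that of the large subunit, was at 11593 ± 655, 11831 ± 1588 and 11383 ± 930, with adjusted p-values of 0.57 and 0.607. Over both RNAs, the mean log2 CPM differed by -0.0792 ± 0.0479 (SE, samples unpaired) between del9 and EV, and the groups overlapped. The edgeR test gave a median SE of 0.0253 for these RNAs, so the call of *mt-Rnr1* rests on a smaller SE. Libraries were made from poly(A) RNA, which captures ribosomal RNA only in part. Of 8 mitochondrial mRNAs tested, 5 rose with *gdf6Y*, among them *mt-Cytb*, *mt-Nd4*, *mt-Nd2* and *mt-Co1*, but their samples overlapped EV and DESeq2 called 0 of them. With del9, *mt-Cytb* was called higher and *mt-Nd6* lower, and DESeq2 called 1 lower. Several mitochondrial genes, such as *mt-Co2* and *mt-Atp8*, were listed at 0, and reads that mapped to several places or overlapped several genes were discarded in counting. Among 9 regulators of mitochondrial biogenesis, 0 were called with *gdf6Y* by either tool (0 higher and 1 lower unadjusted). With del9, *Myc* (0.13, adjusted p = 0.000117) and *Esrra* (0.11, adjusted p = 0.0425) rose and *Ppargc1a* fell (-0.15, adjusted p = 0.0286), each with groups that overlapped. The medians of this list were -0.02 and 0.01.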

How the data were processed

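RNA of 16 TM4 samples was sequenced from poly(A)-selected, stranded libraries with molecular identifiers. The authors deposited raw counts per gene: reads were demultiplexed with bcl2fastq 2.20.0.422, aligned to GRCm39 with STAR 2.7.10a, deduplicated with UMI-tools and counted with featureCounts 2.0.3, keeping uniquely mapped reads of 1 gene. Depth was 21486850 to 26444903 counts per sample. Groups came from the labels. The sixth *gdf6Y* and del9 replicates were not analysed here. The authors reported leaving both out for lower quality, with fewer assigned and more duplicate reads than the other samples. They named no EV sample as left out.

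Each pair of groups was tested with edgeR 4.0.16 (R 4.3.3; TMM scaling, quasi-likelihood test with the earlier dispersion estimate, genes with at least 1 count, Benjamini-Hochberg adjustment), which was also tested on simulated data. DESeq2 1.42.0 served as an alternative. Normalized counts are counts divided by effective library size and multiplied by its mean. The score used a pseudocount of 2 counts and members with a mean count of at least 10. Of 56748 gene IDs, 56017 matched GENCODE vM39, from which canonical transcript lengths were taken. The plan named exonic length without saying of which transcripts. The canonical transcript was taken, after the data were seen, because all annotated exons run through minor transcripts, and the length of all exons was the alternative. The length correction removed a lowess trend (span 0.3) per sample.

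Named members were, per comparison, those called or the 12 with the smallest adjusted p, the extremes of EV level per length and 9 chosen by role. The members and lists were chosen with earlier results of these data known. The replicate numbers were checked for pairing over 10075 genes: same-numbered deviations correlated at 0.148 to 0.417 for *gdf6Y* and EV, 0.220 to 0.382 for *gdf6Y* and del9, and 0.0855 to 0.308 for del9 and EV. Numbers were taken as pairs where every correlation was over 0.1, from the data and not from the labels. Alternatives covered scaling, filters, tool, block, length, GC content and leaving out each sample.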

Additional observations from a re-analysis of the deposited data

Results flagged for a closer look

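Among 102 groups checked (32 genes and the 2 scores, in 3 groups each), 10 had a sample far from the others by Dixon's test, where chance gives about 1 in 20. In EV 3, the normalized counts of *Mrpl12* (3223.87, next 3343.08) and *Mrps12* (501.21, next 549.199) were low, and so was the mitoribosomal score (5.36973, next 5.39691). In del9 3 that score was high (5.52977, next 5.48475). The remaining 6 were *Mrpl13* in del9 1 (3272.83, low), *Mrpl18* in del9 2 (1870.9, low), *Mrpl2* in EV 2 (1377.54, high), *Mrpl24* in EV 6 (1153.38, low) and *Mrps36* in EV 6 (106.921, low) and del9 5 (116.354, low). EV 3 and del9 3 share a replicate number and give the largest difference by number in the report. Without EV 3, 9 members were called with *gdf6Y* and 20 with del9, and without del9 3, 15 with del9.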

How the results depend on the processing

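No member was called lower against EV under any alternative run. Of the named members, the 13 called with *gdf6Y* and the 17 called with del9 held their direction under every alternative run, and 65 of 312 and 44 of 408 such values lost the threshold. Among named members that were not called, 34 of 431 values passed it with *gdf6Y*, 10 of 312 with del9 and 1 of 391 between *gdf6Y* and del9. Direction turned at least once for 3, 4 and 5 of these, in the same order, at adjusted p-values of 0.782 or more. The number of members called between *gdf6Y* and EV was 13, and became 20 with the replicate block, 21 with block and GC correction, 4 with the length correction and 11 with the length of all exons. All genes called went from 1338 to 2061, 2156, 846 and 1117 in the same order. Between del9 and EV, 29 members became 19 with total counts, 15 with the length correction, 16 with the length of all exons and 16 with block and length. The replicate block alone gave 33, where 2 of 5 samples correlated best with their own number. Between *gdf6Y* and del9, block and length together called 1 member (*Mrpl12*, lower). All genes called there, 261, became 45 with filterByExpr, 44 with at least 10 counts in every sample, 81 with DESeq2, 163 with the newer dispersion estimate, 661 with the block, 685 with block and length and 635 with block and GC. The replicate block changed no other call of a member count by over 1.5 times. With *gdf6Y* against EV, *Mrps36* went from 0.0073 on the log2 scale to -0.039 (block), -0.046 (length), -0.095 (block and length), -0.026 (block and GC) and -0.035 (all exons), *Mrps18a* from 0.043 to -0.015 (length) and -0.023 (block and length), and *Mrps30* from -0.025 to 0.0010 (block and GC). With del9, *Mrpl33* went from 0.036 to -0.019 (length) and -0.014 (block and length), *Mrpl48* from -0.0017 to 0.0074 (GC), 0.0063 (block and GC) and 0.0010 (all exons), *Mrps30* from 0.017 to -5.1e-05 (total counts) and *Mrps36* from 0.10 to -0.00094 (block and length). Between *gdf6Y* and del9, *Mrpl13* went from -0.0056 to 0.0029 (total counts), 0.0045 (GC), 0.0037 (block and GC) and 0.0070 (all exons), and *Mrpl42* from -0.0012 to 0.0011 (DESeq2 size factors, and DESeq2), 0.0074 (total counts), 0.0016 (filterByExpr), 0.0042 (10 counts in every sample) and 0.0038 (all exons). *Mrps18a* went from -0.015 to 0.00070 (GC) and 3.2e-06 (block and GC), and *Mrps18c* from 0.0099 to -0.0078 and -0.0085. The length correction brought the score differences from EV to 0.0456 (*gdf6Y*) and 0.0624 (del9), and those of the cytosolic set to 0.0379 and 0.0435.

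Leaving out 1 sample gave 5 (without *gdf6Y* 5) to 18 members between *gdf6Y* and EV, 15 (without del9 3) to 30 between del9 and EV and 0 to 0 between *gdf6Y* and del9. All genes ranged from 794 (without *gdf6Y* 5) to 1751, from 1692 to 2715 and from 160 (without del9 2) to 441 (without del9 1). Score differences ranged from 0.0631 to 0.0764, from 0.0812 to 0.0970 and from -0.0288 to -0.0105, and for the cytosolic set from 0.0697 to 0.0901, 0.0750 to 0.0939 and -0.0163 to 0.00680. Of the members whose direction turned, those that did so without 1 sample spanned -0.036 to 0.052 (*Mrps36*, *gdf6Y* against EV), -0.021 to 0.016 (*Mrpl48*) and -0.0011 to 0.038 (*Mrps30*) with del9, and between *gdf6Y* and del9 -0.027 to 0.018 (*Mrpl13*), -0.035 to 0.015 (*Mrpl42*), -0.029 to 0.0060 (*Mrpl45*), -0.030 to 0.0069 (*Mrps18a*) and -0.014 to 0.035 (*Mrps18c*). The cause of these shifts was not tested. The GC correction, the newer dispersion estimate, the block with GC and the run with the length of all exons were added after seeing the data, when the canonical length was also chosen. With a median SE of 0.0362 per member, changes of a few percent lie near what a single gene can show at this depth.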
